A study of Rattus norvegicus with 9 samples.

Results

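Gene expression in the medial prefrontal cortex was compared between rats that had received K4 and rats that had received ketamine, using the 3 K4 and 3 Ketamine libraries of a series of 9. The comparison was made on the raw read counts of these 6 libraries, and the 3 Control libraries were kept out of the fit and are given as levels beside it. All animals were Wistar Kyoto rats, an inbred strain studied for its depression-like behaviour, and all libraries were collected on day 15. The K4 group was dosed by the intravenous route through a cannula and the Ketamine group under the skin, in both cases for 7 days, followed by 7 days of withdrawal. Control rats were left without treatment, and no group given the cannula or an injection alone is described. Drug and route therefore cannot be told apart. The labels give no dose, vehicle, age, sex or housing, and do not say that each library came from its own animal, so p-values measure the spread between these libraries, which may be technical. K4 is known here by its code only.

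Ketamine blocks the NMDA class of glutamate receptor and is used as a rapidly acting antidepressant. The medial prefrontal cortex is built of layers. Excitatory neurons of the upper layers connect mainly with other cortical areas, whereas those of the deep layers send axons to the thalamus, brainstem and spinal cord, and the corticothalamic cells of the deepest layer are marked by genes such as Foxp2, Tle4 and Syt6. Oligodendrocytes wrap the axons of these cells in myelin, and the transcription factor Myrf switches on the genes of the myelin sheath.

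The 6 libraries held 27122207 to 33837450 counts in all, and 37991 genes were listed, of which 13347 had no count in any of the 6. Mitochondrially encoded genes took 10.4% to 11.8% of the counts. Slc17a7, the vesicular glutamate transporter of cortical excitatory neurons, stood at 898 to 990.0 CPM (read counts brought to a common library size by TMM scaling over all 9 libraries) in the 6 libraries. Of 12 markers of choroid plexus and ependyma, 4 were at 0 in all 6 and 7 had enough counts to be tested. Summed, the 12 held 13.2 to 24.1 CPM in K4 and 17.3 to 21.1 CPM in Ketamine. Ribosomal RNA precursor (Rn45s), chosen after its values were seen, differed widely within both groups, with 153, 1409 and 591 CPM in K4 replicates 1 to 3 and 121, 285 and 743 CPM in Ketamine replicates 1 to 3. Summed markers of meningeal fibroblasts also differed within groups, with 387, 94.9 and 318 CPM in K4 and 362, 237 and 281 CPM in Ketamine. The part of either in the results below was not tested. The number of calls is therefore also given without each library in turn, as are the medians of some lists.

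With 17730 genes tested, 27 genes (0.152%) differed between K4 and ketamine at a Benjamini-Hochberg adjusted p below 0.05 in edgeR's quasi-likelihood test. Of these, 25 (0.141%) were higher in K4 and 2 (0.0113%) were lower. The genes higher in K4 included deep-layer neuron genes (Syt6, Tbr1, Rprm and Foxp2), the myelin regulator Myrf, the kainate receptor subunit Grik3, the potassium channel Kcna1, the guidance molecule Sema5a and the retinoic acid-degrading enzyme Cyp26b1. Differences were small, with a median size of 0.49 on the log2 scale among the 27 calls: 8 exceeded 1.5-fold and 2, Syt6 and Cyp26b1, exceeded 2-fold. The 3 K4 libraries lay outside the range of the 3 Ketamine libraries for all 27, a pattern shown by 9.49% of all genes tested for K4 above ketamine and by 8.27% for K4 below.

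The calls lay close to the threshold, and their number changed when single libraries were left out. Such fits also hold fewer libraries, and what part that had in lost calls was not tested. An adjusted p below 0.01 was reached by 5 genes, 14 of the 27 had an adjusted p of at least 0.045, and the next gene stood at 0.05132. By the same edgeR test no gene was called without K4 replicate 1 (1646 at an unadjusted p below 0.05), 1 without Ketamine replicate 2, 1 without Ketamine replicate 3, 9 without K4 replicate 2, 64 without K4 replicate 3 and 316 without Ketamine replicate 1. Of the 27 genes, 7 were called in 3 of these 6 fits, 14 in 2, 6 in 1, and none in 4 or more. With the Control libraries in the fit edgeR called none (1648 at an unadjusted p below 0.05, smallest adjusted p 0.0778), whereas DESeq2 on the 6 libraries called 382. Each of the 27 kept its direction in all of these fits.

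**Figure D1:**
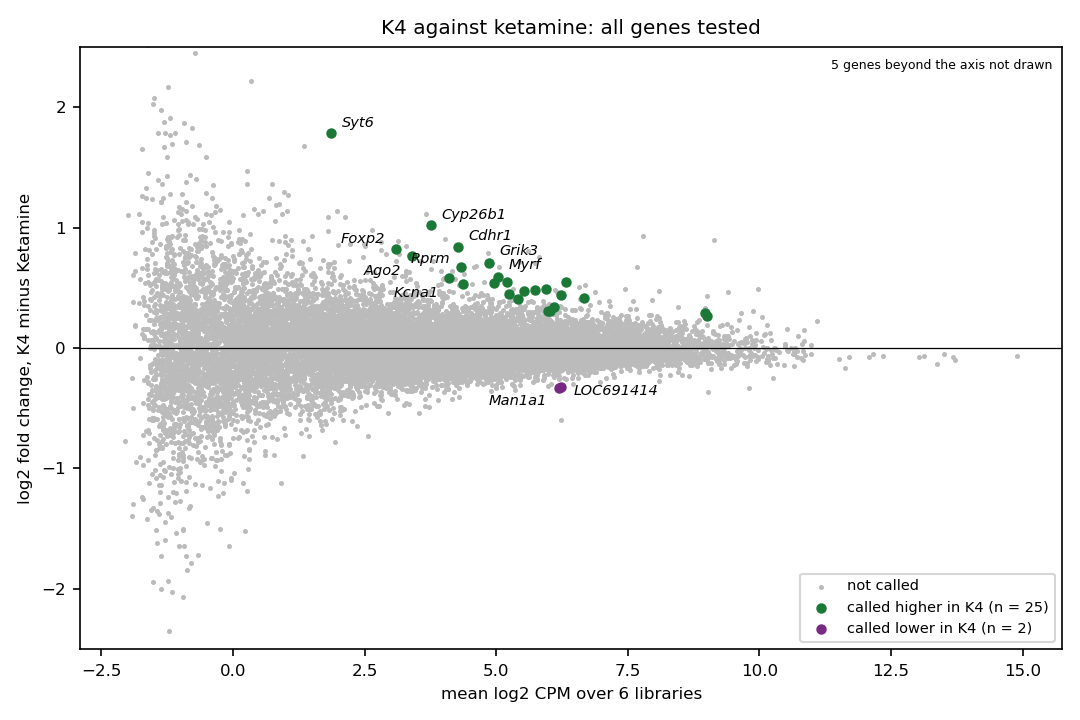
Log2 fold change (K4 minus Ketamine) of each of the 17730 genes tested (vertical axis) against its mean log2 CPM over the 6 libraries (horizontal axis), with 25 genes called higher in K4 in green, 2 called lower in purple and the rest in grey. The called genes lie mostly above 0, with Syt6 at 1.78 the farthest from it, and 5 genes beyond the axis are not drawn. Syt6 also has the lowest mean log2 CPM of the called genes, at 1.87.

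No gene list had more called members than that of deep-layer cortical neurons. All lists were chosen with earlier results of these data known, so their shares beside those of all genes are a description and not a test. Over all genes tested, 0.141% were called higher in K4, 0.0113% were called lower, and 49% had a positive log2 fold change. Of 17 deep-layer markers, all tested, 4 were higher in K4 (against 0.141%) and none lower, and 13 had a positive log2 fold change (against 49%). In 8, all K4 libraries lay above all Ketamine libraries (against 9.49% of all genes). The median log2 fold change of the 17 was 0.21, beside -0.0038 over all genes tested. Leaving out single libraries moved this list median between 0.16 (without K4 replicate 2) and 0.25, with 11 to 14 positive. Of these 6 fits, Syt6 was called in 3, Tbr1 and Rprm in 2 each and Foxp2 in 1. In bulk tissue, a larger number of cells of one type and more RNA per cell cannot be told apart.

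Syt6 encodes a synaptotagmin of membrane traffic and marks corticothalamic neurons. It was measured at 5.28, 6.66 and 4.285 CPM in K4 replicates 1 to 3 and at 2.06, 1.10 and 1.51 CPM in Ketamine replicates 1 to 3. All K4 values were more than 2-fold the highest Ketamine value, and the log2 fold change was 1.78 (SE 0.23, 95% interval 1.29 to 2.28, adjusted p = 0.00892). The Control libraries, at 3.06, 2.29 and 3.03 CPM, lay between the groups without overlap. Leaving out single libraries moved the log2 fold change between 1.60 and 2.04. Syt6 has low counts, and DESeq2 gave it no adjusted p, so it is not among the 382 calls of that tool.

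Foxp2, a forkhead transcription factor of corticothalamic neurons, was measured at 10.7, 11.2 and 9.72 CPM in K4 and 4.72, 5.67 and 7.36 CPM in Ketamine (log2 fold change 0.82, SE 0.15, adjusted p = 0.04999). Control, at 8.94, 5.16 and 8.84 CPM, lay below K4 and overlapped the Ketamine range. Tbr1, the T-box factor that specifies corticothalamic identity during development, stood at 46.7, 49.6 and 46.2 CPM in K4 and 37.0, 36.9 and 33.3 CPM in Ketamine (log2 fold change 0.40, SE 0.065, adjusted p = 0.0318). Its Control values, at 43.5, 37.7 and 47.6 CPM, lay above Ketamine and overlapped K4. Rprm, a cell cycle regulator that marks deep-layer neurons, stood at 24.1, 26.7 and 21.2 CPM in K4 and 15.4, 12.7 and 16.7 CPM in Ketamine (log2 fold change 0.67, SE 0.11, adjusted p = 0.0374). Control, at 11.96, 8.43 and 13.8 CPM, lay below K4 and overlapped Ketamine, as for Foxp2.

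Some of the other markers in the list split in a way that was noticed after the values were seen. The split does not cover the whole list: Bcl11b, Crym, Ntng2, Oprk1 and Sla are not described singly. The 8 markers with non-overlapping groups include a member of these. Sulf1, a sulfatase of heparan sulfate chains, was measured at 18.04, 18.4 and 14.2 CPM in K4 and 5.89, 7.09 and 10.2 CPM in Ketamine (log2 fold change 1.12), Hs3st4, a heparan sulfate sulfotransferase, had a log2 fold change of 0.68 and the corepressor Tle4 one of 0.34, and none of these passed the test (adjusted p = 0.0624, 0.0669 and 0.0711). All 3 had non-overlapping groups. By contrast, Fezf2 (log2 fold change -0.05), Etv1 (-0.04) and Pcp4 (0.15), which are expressed in the subcortically projecting neurons above the corticothalamic cells, and Ctgf (0.04) and Nxph4 (-0.20), which mark the subplate-derived cells at the base of the cortex, had overlapping groups. Upper-layer markers gave no call among 12 tested, against 0.152% of all genes called (5 positive, median log2 fold change -0.03). The lowest p among them belonged to Lamp5, a membrane protein also found in interneurons, at 71.6 ± 4.96 CPM in K4 and 84.96 ± 3.30 CPM in Ketamine (SD, n = 3), with no overlap (log2 fold change -0.25, adjusted p = 0.0944).

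**Figure D2:**
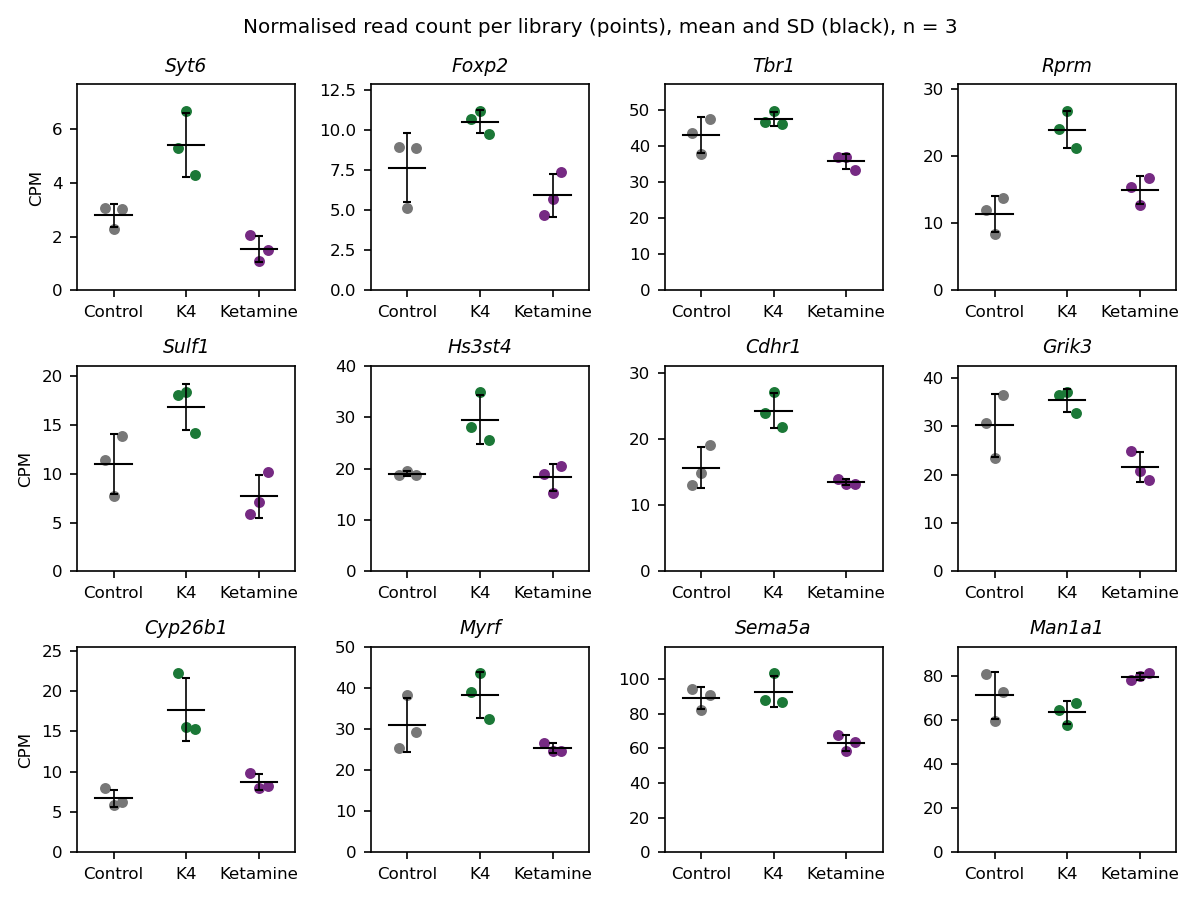
Normalised read count (CPM, vertical axis from 0) of 12 genes in each library by group, with points for libraries and black lines for the mean and SD of 3 libraries. In every panel except Man1a1 the K4 points lie above all Ketamine points; Control lies between the groups for Syt6 and below K4 for Rprm, and Sulf1 and Hs3st4 did not pass the test.

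Because Tbr1 was itself among the calls, the promoters of the deep-layer genes were searched for the T-box core GGTGTGA on both strands, in the window from 250 bases before to 50 after the gene start (RefSeq, build GRCr8). Windows were found for 10 of the 17 genes, and 2 of the 10 held the core (20%), those of Syt6 and Ctgf, against 3.5% of the windows of all genes tested. Of the 27 called genes, 21 had a window, in all 27 windows because some genes have several, and 1 of these windows, that of Syt6, held the core (3.7%). The Syt6 window (chr2:193781226-193781525, plus strand) is shown with the core in capitals, read here on the opposite strand and beginning at position -155, where the gene start is 0. A match of these letters is a description of the window, not evidence of a binding site.
Syt6: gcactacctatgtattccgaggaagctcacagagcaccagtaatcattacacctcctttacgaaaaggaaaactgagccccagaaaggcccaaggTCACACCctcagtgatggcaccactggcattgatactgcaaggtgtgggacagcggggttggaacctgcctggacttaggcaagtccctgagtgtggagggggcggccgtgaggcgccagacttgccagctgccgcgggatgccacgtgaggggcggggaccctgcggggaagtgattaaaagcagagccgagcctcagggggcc

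Myelin genes stood higher in K4, 1 of them past the test. Of 14 markers of myelinating oligodendrocytes, all tested, Myrf was called higher in K4 (1 of 14, against 0.141% of all genes). All 14 had a positive log2 fold change (against 49%), and 12 had every K4 library above every Ketamine library (against 9.49%). The median log2 fold change was 0.46, and it lay between 0.30 (without K4 replicate 2) and 0.56 when single libraries were left out, with 14 of 14 positive each time.

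Myrf was measured at 39.0, 43.6 and 32.6 CPM in K4 and 26.8, 24.7 and 24.6 CPM in Ketamine (log2 fold change 0.59, SE 0.093, 95% interval 0.39 to 0.79, adjusted p = 0.0318). Control stood at 25.6, 38.3 and 29.4 CPM and overlapped both groups. Mbp, the myelin basic protein and the most abundant of these transcripts in counts, was measured at 1045, 1410 and 1005 CPM in K4 and 905, 693 and 860 CPM in Ketamine (log2 fold change 0.49, SE 0.18, adjusted p = 0.399). For Mbp, K4 replicate 2 was the highest library and Ketamine replicate 2 the lowest, and the groups did not overlap.

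Further members followed the same order without passing the test. Their log2 fold changes ranged from 0.23 for Cldn11, the tight junction protein of myelin, to 0.63 for Gjb1, a gap junction protein, with Opalin at 0.53, Mal at 0.48, Mobp at 0.47, Mog at 0.46, Ugt8 (a galactolipid synthesis enzyme) at 0.44, Ermn at 0.42, Mag at 0.39, Aspa at 0.30 and Cnp at 0.25. The smallest adjusted p among them was 0.0654, for Ugt8, and groups overlapped for Ermn and Mag. Summed over the 14 markers, the K4 libraries held 2499, 3336 and 2493 CPM and the Ketamine libraries 2244, 1725 and 2078 CPM. Control ranged from 1931 to 3111 CPM, a span that covers all Ketamine libraries but 1 and all K4 libraries but 1. Oligodendrocyte precursor markers gave no call among 11 tested (against 0.152% of all genes called), with 10 positive and a median log2 fold change of 0.20.

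**Figure D3:**
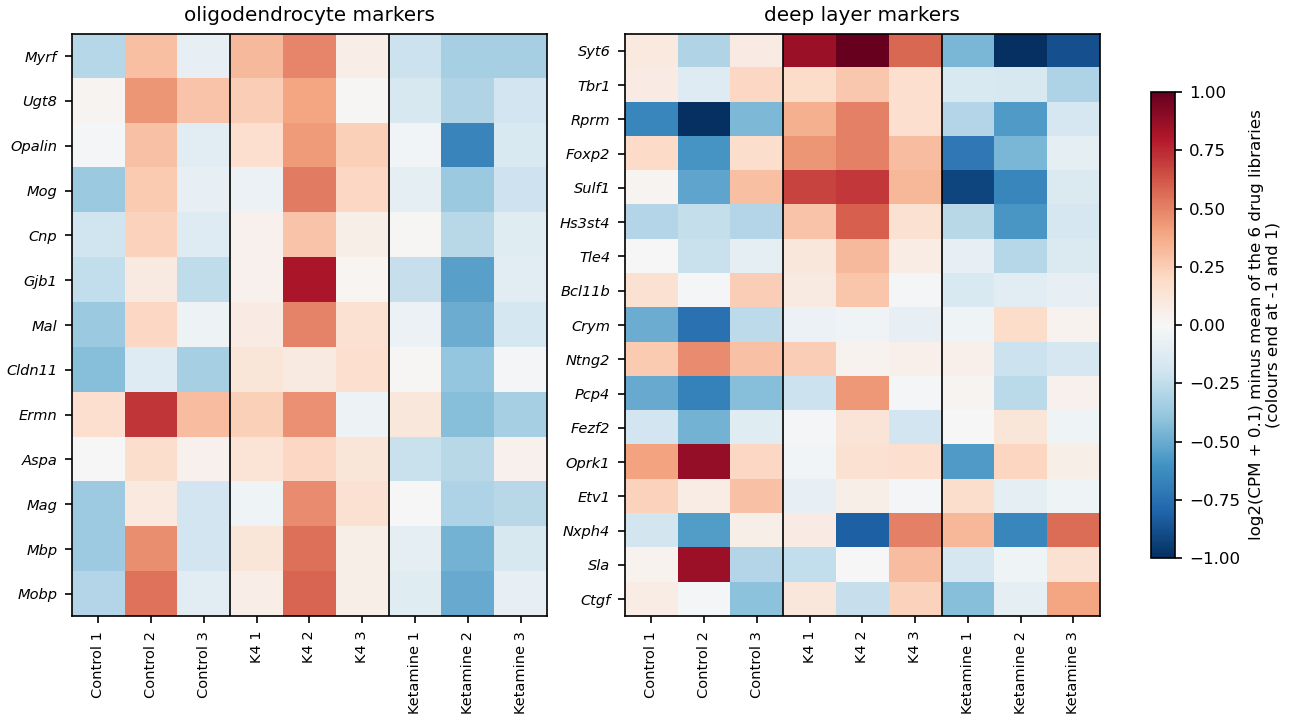
Level of each oligodendrocyte marker (left, 13 genes drawn) and deep-layer marker (right, 17 genes) in each of the 9 libraries, as log2(CPM + 0.1) minus the mean of the 6 drug libraries, with red above and blue below that mean and colours ending at -1 and 1. Oligodendrocyte markers are mostly highest in K4 replicate 2 and low in Ketamine replicate 2, with Control 2 also high. Rows run from the smallest to the largest p of K4 against Ketamine. That the upper 8 deep-layer rows separate the groups and the lower rows do not follows from this order.

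The core letters recognised by Myrf, CTGGNAC, were searched in the same windows on both strands. Windows were found for 10 of the 14 oligodendrocyte genes, 11 windows in all, and 7 of the 11 (63.6%) held the core, those of Mbp, Mag, Cnp, Cldn11, Opalin, Gjb1 and Mal, against 18.3% of the windows of all genes tested. Among the windows of called genes 14.8% held it. Myrf, the called member of the list, had no window. As for the T-box core, a match describes the window and is not evidence of a binding site. Whether Myrf acts on these genes here was not tested. The windows of 4 of the 7 genes are shown as examples, with the core in capitals. They lie at chr1:249858141-249858440 (Opalin, minus strand), chr2:114149490-114149789 (Cldn11, minus strand), chr10:86011254-86011553 (Cnp, plus strand) and chr1:95290995-95291294 (Mag, minus strand), all in GRCr8, and the core begins at positions -17, -120, -124 and -94 from the gene start. The core of Cldn11 and of Opalin is read on the opposite strand.
Opalin: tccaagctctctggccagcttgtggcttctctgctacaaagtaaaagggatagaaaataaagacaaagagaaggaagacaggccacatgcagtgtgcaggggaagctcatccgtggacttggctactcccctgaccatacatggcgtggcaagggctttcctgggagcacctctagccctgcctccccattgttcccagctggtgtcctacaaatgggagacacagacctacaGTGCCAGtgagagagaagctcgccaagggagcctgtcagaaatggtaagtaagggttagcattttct
Cldn11: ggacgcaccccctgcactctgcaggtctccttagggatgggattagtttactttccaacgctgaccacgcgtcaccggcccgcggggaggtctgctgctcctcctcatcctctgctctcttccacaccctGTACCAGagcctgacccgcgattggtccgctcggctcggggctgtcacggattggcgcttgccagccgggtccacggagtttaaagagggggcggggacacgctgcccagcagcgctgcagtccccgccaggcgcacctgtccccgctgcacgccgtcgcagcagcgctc
Cnp: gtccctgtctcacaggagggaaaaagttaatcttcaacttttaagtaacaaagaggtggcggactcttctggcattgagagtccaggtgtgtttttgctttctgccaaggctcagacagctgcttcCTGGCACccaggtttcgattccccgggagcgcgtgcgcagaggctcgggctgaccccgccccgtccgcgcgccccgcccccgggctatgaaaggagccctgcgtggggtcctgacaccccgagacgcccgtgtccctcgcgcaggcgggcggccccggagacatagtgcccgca
Mag: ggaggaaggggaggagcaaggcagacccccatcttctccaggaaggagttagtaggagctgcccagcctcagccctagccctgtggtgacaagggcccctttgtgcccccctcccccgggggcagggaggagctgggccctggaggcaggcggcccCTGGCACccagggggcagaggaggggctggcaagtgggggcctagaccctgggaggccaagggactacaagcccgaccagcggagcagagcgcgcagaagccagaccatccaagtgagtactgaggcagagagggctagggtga

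Of the vessel and blood genes, 1 passed the test. Of 14 endothelial markers, all tested, 1 was called higher (against 0.141% of all genes) and 14 had a positive log2 fold change (against 49%). K4 lay above ketamine in all libraries for 5 (against 9.49% of all genes), and the median log2 fold change of the 14 was 0.27. Leaving out single libraries gave medians of 0.22 to 0.31, with 13 or 14 positive. The called gene was Slco1a2 as the deposited table names it (Slco1a4 in RefSeq by its identifier), an organic anion transporter of the blood-brain barrier, at 74.1, 66.6 and 70.2 CPM in K4 and 56.7, 56.6 and 56.7 CPM in Ketamine (log2 fold change 0.30, SE 0.056, adjusted p = 0.04999). Vwf, the von Willebrand factor of endothelial cells and platelets, stood at 71.6, 50.1 and 72.5 CPM against 38.7, 40.8 and 38.9 CPM (log2 fold change 0.71, adjusted p = 0.132), and the efflux pump Abcb1a, the receptor Tek and the receptor Flt1 had log2 fold changes of 0.32, 0.34 and 0.37 without passing the test.

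Haemoglobin and other red cell and platelet genes gave no call among 8 tested (against 0.152% of all genes called). All 8 were positive and their median log2 fold change was 0.78. Summed, they held 248, 150 and 132 CPM in K4 and 109, 111 and 90.7 CPM in Ketamine, with K4 replicate 1 the highest library and Control at 117 to 222 CPM. Without K4 replicate 1 their median was 0.42. Haemoglobin genes have near-identical copies, so the split of reads among them is uncertain. The oligodendrocyte, endothelial and blood lists thus had positive medians beside the deep-layer list, with 1, 1 and 0 members called, and their part in the deep-layer result was not tested.

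Among glutamate receptor genes, Grik3 alone was called. Grik3 encodes a kainate receptor subunit and was measured at 36.4, 37.0 and 32.7 CPM in K4 and 24.9, 20.8 and 19.0 CPM in Ketamine, with Control at 30.7, 23.5 and 36.5 CPM (log2 fold change 0.71, SE 0.094, 95% interval 0.51 to 0.91, adjusted p = 0.00892). Of 23 NMDA, AMPA and kainate receptor genes tested, 1 was called higher (against 0.141% of all genes), 16 were positive, 7 had K4 above ketamine in all libraries (against 9.49%), and the median log2 fold change was 0.04. The obligatory NMDA subunit Grin1 stood at 490, 496 and 485 CPM in K4 and 495, 495 and 458 CPM in Ketamine, with overlapping groups (log2 fold change 0.02, 95% interval -0.08 to 0.11). The interval of Grin2b was -0.08 to 0.11 as well, that of the AMPA subunit Gria1 0.01 to 0.21 and that of Gria2 -0.16 to 0.06.

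Grin2a, the NMDA subunit of mature synapses, was measured at 141, 135 and 138 CPM in K4 and 132, 93.4 and 90.7 CPM in Ketamine, where replicate 1 lay close to the K4 level (log2 fold change 0.38, SE 0.15, adjusted p = 0.406). Fits without each library in turn gave Grin2a log2 fold changes of 0.28 to 0.58, the highest without Ketamine replicate 1. It was called in 1 of these 6 fits, the one without that replicate, which lay nearest K4. The adjusted p ran from 0.000829 to 0.667 across them. No metabotropic glutamate receptor was called among 7 tested (against 0.152% of all genes called). Grm2, a presynaptic autoreceptor, had a log2 fold change of -0.31 (adjusted p = 0.138) and Grm3, its relative on astrocytes and neurons, one of 0.32 (adjusted p = 0.168). Both drug groups were far below Control for Grm3, at 219 ± 9.95 CPM in K4, 175 ± 24.8 CPM in Ketamine and 400.4 ± 43.9 CPM in Control (SD, n = 3). The glutamate transporter Slc1a2 followed the same order, at 253, 278 and 205 CPM in K4, 177, 143 and 140 CPM in Ketamine and 412, 567 and 383 CPM in Control (log2 fold change between the drugs 0.67, SE 0.15, adjusted p = 0.189).

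Single genes of ion transport and presynaptic function were also higher in K4. Kcna1, a voltage-gated potassium channel of axons, was measured at 21.4, 20.8 and 17.8 CPM in K4 and 13.6, 11.7 and 14.5 CPM in Ketamine (log2 fold change 0.58, SE 0.10, adjusted p = 0.0487). Control stood at 19.2, 18.04 and 22.4 CPM, within or above the K4 range. Slc4a8, a sodium-driven bicarbonate exchanger, was at 73.9, 70.7 and 66.8 CPM in K4 and 54.4, 48.8 and 46.5 CPM in Ketamine, with Control at 67.7, 67.6 and 82.1 CPM (log2 fold change 0.49, SE 0.065, adjusted p = 0.00892). Bsn, the scaffold protein bassoon of the presynaptic active zone, was also called, at 543, 542 and 521 CPM in K4 and 475, 429 and 402 CPM in Ketamine (log2 fold change 0.29, SE 0.054, adjusted p = 0.04999).

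Nos1, the neuronal nitric oxide synthase, stood at 57.0, 51.9 and 49.0 CPM in K4 and 42.4, 37.4 and 33.1 CPM in Ketamine (log2 fold change 0.48, adjusted p = 0.04999). It was the single call among 18 interneuron markers (against 0.141% of all genes called higher), whose median log2 fold change was 0.01. Pde10a, a cyclic nucleotide phosphodiesterase best known from striatal neurons, was higher at 44.6, 42.1 and 41.0 CPM against 35.6, 29.1 and 28.5 CPM (log2 fold change 0.45, adjusted p = 0.04999). It was the single call among 12 striatal markers tested (against 0.141% of all genes called higher). Of the 12, 8 were positive (against 49% of all genes) and 4 had K4 above ketamine in all libraries (against 9.49%). Summed, the striatal markers held 368 to 399 CPM in K4, 349 to 352 CPM in Ketamine and 353 to 381 CPM in Control. Rgs9, a striatal regulator of G protein signalling, had the highest log2 fold change among them, at 0.85 (adjusted p = 0.104), whereas Drd2 (0.13) and Adora2a (-0.15) had overlapping groups, and 2 further markers were at 0 in all 6 libraries. In the ion channel lists, 1 of 25 potassium and HCN channel genes was called (against 0.141% of all genes called higher), with 19 positive. None of 23 sodium and calcium channel genes was called (against 0.152% of all genes called in either direction). Scn8a, the sodium channel of axon initial segments, was closest, with a log2 fold change of 0.33 (adjusted p = 0.104).

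Cdhr1 had the smallest p of all genes. It encodes a cadherin-related protein of photoreceptors and of the olfactory bulb, and was measured at 23.9, 27.1 and 21.9 CPM in K4 and 14.0, 13.2 and 13.3 CPM in Ketamine, with Control at 13.1, 14.9 and 19.1 CPM (log2 fold change 0.84, SE 0.093, 95% interval 0.64 to 1.04, adjusted p = 0.00306). It was the single call among 11 olfactory bulb and rostral stream markers tested (against 0.141% of all genes called higher). Of the 11, 6 were positive (against 49% of all genes), and the median log2 fold change was 0.03. Sema5a, a semaphorin that guides axons, stood at 88.1, 103.3 and 87.0 CPM in K4 and 67.6, 58.4 and 63.7 CPM in Ketamine (log2 fold change 0.55, SE 0.071, adjusted p = 0.00933). Among 33 axon guidance genes it was the single call (against 0.141% of all genes called higher), and 27 were positive (against 49%). Slit1, Nrp1 and Plxna1 followed with log2 fold changes of 0.28, 0.32 and 0.23 that did not pass (adjusted p = 0.0553, 0.0669 and 0.0811). Cyp26b1, which breaks down retinoic acid, was measured at 22.2, 15.6 and 15.4 CPM in K4 and 9.85, 8.01 and 8.23 CPM in Ketamine, with Control lowest at 7.93, 5.93 and 6.23 CPM (log2 fold change 1.02, SE 0.14, adjusted p = 0.0273). Of 18 retinoic acid genes tested, no other was called, and the median log2 fold change was -0.01.

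The other called genes belong to no shared list. Hivep3, a zinc finger transcription factor, was higher in K4 by a log2 fold change of 0.44 (adjusted p = 0.016), Caln1, a calcium-binding protein of neurons, by 0.55 (adjusted p = 0.0308) and Ago2, the slicing Argonaute protein of RNA interference, by 0.76 (adjusted p = 0.04999). Ago2 was measured at 13.6, 13.1 and 11.9 CPM in K4 and 9.42, 7.09 and 6.198 CPM in Ketamine, and the groups did not overlap. The rest lay outside the naming rule and are named after their values were seen: the receptor adaptor Dok6 (log2 fold change 0.53), the adhesion protein Flrt1 (0.34), the phospholipid flippase Atp11a (0.31), Prrc2b (0.27), the protocadherin Pcdh1 (0.42), the phosphatase subunit Ankrd52 (0.54) and the tau kinase Ttbk1 (0.48) were higher in K4. LOC691414, annotated as a hypothetical protein, was lower (-0.32).

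Few genes were lower in K4. Man1a1, a Golgi mannosidase that trims glycans, stood at 64.8, 58.1 and 68.1 CPM in K4 and 78.2, 80.1 and 81.4 CPM in Ketamine (log2 fold change -0.34, SE 0.062, adjusted p = 0.04999), with Control between 59.9 and 81.2 CPM across both groups. The genes next in line did not pass the test. Nrgn, a postsynaptic calmodulin-binding protein, was at 1028, 1116 and 1117 CPM in K4 and 1276, 1324 and 1245 CPM in Ketamine (log2 fold change -0.24, SE 0.046, adjusted p = 0.0513), with Control lowest at 882 to 966 CPM. Slc30a3, the zinc transporter of glutamatergic vesicles, had a log2 fold change of -0.25 and Ppp1r1a, a protein phosphatase inhibitor, one of -0.30. Ptms (-0.23), Nol7 (-0.30), Tceal5 (-0.35), Prdm8 (-0.31) and Rasgef1c (-0.33) completed the set, with adjusted p-values of 0.0553 to 0.0749 across these 7 genes. The neuropeptide Cck stood at 240, 238 and 247 CPM in K4 and 262, 317 and 296 CPM in Ketamine (log2 fold change -0.28, adjusted p = 0.0944), above Control, at 183 to 221 CPM, in all 6 libraries.

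No activity-regulated gene passed the test, and their levels spread widely within the groups. None was called among 28 immediate early genes (against 0.152% of all genes called), of which 21 were positive with a median log2 fold change of 0.11. Arc, a synaptic plasticity gene induced by activity, was measured at 111, 192 and 24.3 CPM in K4 and 55.6, 82.4 and 90.5 CPM in Ketamine, so K4 held both the highest and the lowest library (log2 fold change 0.51, 95% interval -1.66 to 2.68). Fos (12.3, 25.3 and 4.83 CPM against 5.95, 8.75 and 17.2 CPM) and Egr1 (77.5, 122 and 43.9 CPM against 45.7, 56.7 and 72.5 CPM) had the same order within K4. Without K4 replicate 2 the median of the list was -0.02 with 11 of 28 positive. Npas4 had a log2 fold change of -0.17 (95% interval -1.98 to 1.65). Fosl2 was the single member of 28 with non-overlapping groups, where 9.49% of all genes had K4 above ketamine in all libraries. It stood at 4.59, 7.58 and 3.31 CPM against 2.39, 2.23 and 2.38 CPM (log2 fold change 1.14, adjusted p = 0.104).

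Neurotrophin, opioid, monoamine and clock genes gave no call. With 0.152% of all genes called, lists of this size without a call do not stand out. Bdnf, the neurotrophin most often linked to antidepressant action, stood at 36.7, 34.3 and 30.3 CPM in K4 and 29.3, 35.7 and 31.0 CPM in Ketamine (log2 fold change 0.07, 95% interval -0.12 to 0.26), and its receptor Ntrk2 had a log2 fold change of 0.20 (adjusted p = 0.144). Among 23 neurotrophin and mTOR genes 18 were positive, Tsc2, an inhibitor of mTOR, having the smallest adjusted p at 0.119. Oprm1, the mu opioid receptor, was measured at 1.79, 1.74 and 1.55 CPM in K4 and 1.32, 0.567 and 0.377 CPM in Ketamine, with Control at 1.54 to 1.66 CPM (log2 fold change 1.16, SE 0.38, adjusted p = 0.212). Its 95% interval ran from 0.34 to 1.98. Fits without each library in turn gave Oprm1 log2 fold changes of 0.82 to 1.85, the highest without Ketamine replicate 1. It was called in 1 of these 6 fits, the one without that replicate, which was the highest of its group. The adjusted p ran from 0.0267 to 0.598 across them. Dbp, a clock output factor, stood at 108, 105 and 118 CPM in K4 and 124, 138 and 140 CPM in Ketamine and did not pass the test (log2 fold change -0.29, adjusted p = 0.0669), and the other 18 clock genes had log2 fold changes of -0.23 to 0.21. The adrenergic receptor Adra1a was the closest of 25 monoamine genes (log2 fold change 0.47, adjusted p = 0.0848). Sorcs3, a sorting receptor, stood at 52.2 ± 0.391 CPM in K4 and 52.7 ± 3.74 CPM in Ketamine, against 33.1 ± 2.55 CPM in Control (SD, n = 3).

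Lists of other cell types and of synaptic function gave 1 call in all. Over all genes tested, 0.152% were called, so the absence of a call does not set these lists apart. Astrocyte markers gave no call among 14 tested (10 positive, median log2 fold change 0.07), and microglia markers none among 13 (10 positive, median 0.12). Bsn was the single call among 26 synaptic vesicle and active zone genes (17 positive, median 0.01), against 0.141% of all genes called higher. No call was made among 26 postsynaptic density genes (21 positive, median 0.10), 20 GABA genes (14 positive, median 0.02), 11 perineuronal net genes (9 positive, median 0.15) or 18 stress-axis genes (10 positive, median 0.01). In the GABA list Gabrb1, a GABA-A receptor subunit, had the smallest p, at 231 ± 2.09 CPM in K4 and 201 ± 10.6 CPM in Ketamine (SD, n = 3; log2 fold change 0.19, adjusted p = 0.104).

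Genes of energy metabolism and protein synthesis had mostly negative log2 fold changes, without a single call (against 0.152% of all genes called). Of 78 nuclear-encoded genes of oxidative phosphorylation 2 were positive, and their median log2 fold change was -0.10. Mitochondrial ribosomal proteins (74 tested, 2 positive, median -0.12), cytosolic ribosomal proteins (87 tested, 11 positive, median -0.08), proteasome subunits (39 tested, 6 positive, median -0.06) and the 13 mitochondrially encoded genes (none positive, median -0.08) lay on the same side. Transcripts in these lists are short, with a median length implied by counts and FPKM of 0.665 to 1.13 kb, and of 1.52 kb for the proteasome. The median over all genes tested was 2.96 kb. Genes of chromatin regulation (33 tested, 28 positive, median 0.12) and axon guidance (median 0.11) are long, at 9.3 and 6.97 kb.

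The slope of log2 CPM on log2 length was 0.033, 0.0084 and 0.018 in K4 replicates 1 to 3 and 0.010, -0.037 and -0.034 in Ketamine replicates 1 to 3. The groups overlapped, Ketamine replicate 1 lying above K4 replicate 2. The decile of genes with the shortest transcripts had a median log2 fold change of -0.08 and the decile with the longest one of 0.08. With each library's length trend taken as an offset, the median was -0.04 for oxidative phosphorylation, -0.07 for mitochondrial and -0.02 for cytosolic ribosomal proteins, 0.03 for chromatin and 0.02 for axon guidance. It was -0.03 for the proteasome and -0.03 for the mitochondrially encoded genes. The same offset left the oligodendrocyte median at 0.46, the endothelial one at 0.27 and the deep-layer one at 0.18. It left 20 genes called, 16 of them among the 27, and among the genes no longer called were Sema5a (log2 fold change 0.45, adjusted p = 0.0564), Myrf (0.53, adjusted p = 0.0555), Foxp2 (0.73, adjusted p = 0.104), Slco1a2 (0.28, adjusted p = 0.0726), Hivep3 (0.34, adjusted p = 0.193) and Bsn (0.17, adjusted p = 0.245).

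**Figure D4:**
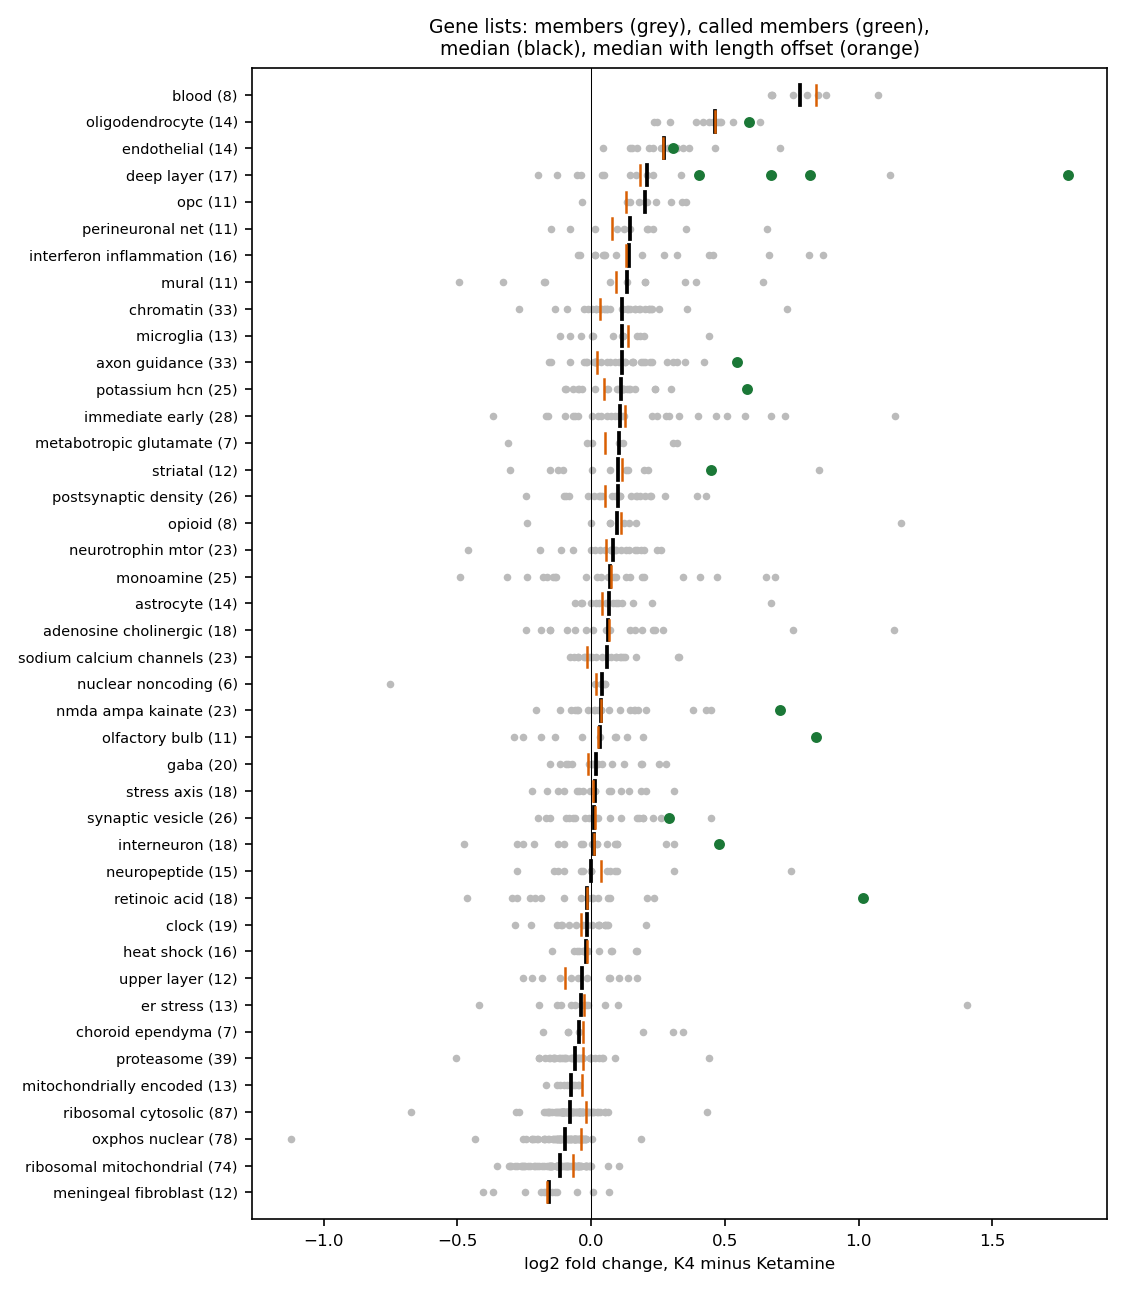
Log2 fold change (K4 minus Ketamine, horizontal axis) of every tested member of the 42 gene lists (number tested in parentheses), with called members in green, other members in grey, the median in black and the median with the length offset in orange. Blood, oligodendrocyte, endothelial and deep-layer lists have the highest medians at 0.78, 0.46, 0.27 and 0.21, and the medians of the ribosomal and oxidative phosphorylation lists move toward 0 with the offset.

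Levels in Control place the called genes differently. The fit of all 9 libraries gave log2 fold changes of each drug against Control, and the 2 share the Control libraries. The Control libraries held more counts than any drug library, at 40863756 to 42731004. Mitochondrially encoded genes took 11.63% to 18.95% of Control counts, against 10.4% to 11.8% in the 6 drug libraries. What part these differences have in the values against Control was not tested. Cyp26b1 was 1.40 above Control after K4 (adjusted p = 0.00268) and 0.37 after ketamine (adjusted p = 0.139), and Rprm 1.07 (adjusted p = 0.00624) and 0.39 (adjusted p = 0.123). Cdhr1 was 0.63 above Control after K4 (adjusted p = 0.0145) and -0.22 relative to it after ketamine (adjusted p = 0.261). Syt6 was 0.95 above Control after K4 (adjusted p = 0.0294) and fell by 0.84 on the log2 scale after ketamine (adjusted p = 0.0315), so that the groups lay on opposite sides of Control.

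For several other genes K4 lay near Control. Slc4a8 had a log2 fold change of -0.04 after K4 (adjusted p = 0.79) and -0.54 after ketamine (adjusted p = 0.00142), Sema5a 0.05 (adjusted p = 0.742) and -0.50 (adjusted p = 0.00183), Kcna1 0.0035 (adjusted p = 0.989) and -0.59 (adjusted p = 0.00376), and Nos1 -0.08 (adjusted p = 0.64) and -0.57 (adjusted p = 0.00245). Another set lay below Control in both groups and lower after ketamine, among them Caln1 (-0.26 after K4, adjusted p = 0.0877, and -0.81 after ketamine, adjusted p = 0.000338) and Dok6 (-0.87, adjusted p = 0.0145, and -1.41, adjusted p = 0.000605). Myrf did not pass against Control after either drug (0.30, adjusted p = 0.221, and -0.30, adjusted p = 0.18). Because the contrast of K4 with ketamine gave no call in that same fit, these values describe where the levels lay.

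The number of calls changed more with the choice of library and tool than with scaling. Median-ratio size factors in edgeR gave 15 calls and upper quartile scaling 47, while leaving the low-count filter out gave 87. A limma fit to the deposited FPKM values gave none (1909 at an unadjusted p below 0.05 with a pseudocount of 1).

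**Figure D5:**
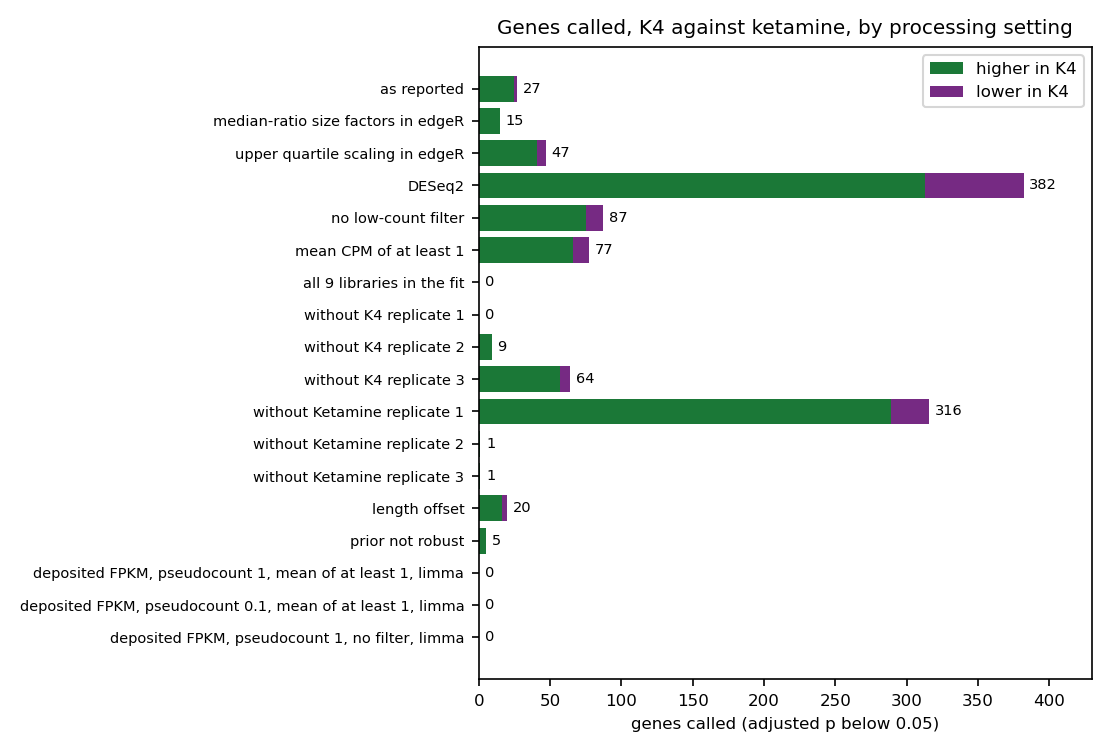
Number of genes called at an adjusted p below 0.05 (horizontal axis) by processing setting, with genes higher in K4 in green and lower in purple. The settings with a replicate block are not drawn. The bar as reported holds 27 genes, the settings range from 0 to 382, and genes higher in K4 are the majority wherever any gene is called.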

How the data were processed

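Total RNA was turned into stranded, poly(A)-selected sequencing libraries, per the labels' protocols. The submitters' processing notes name rn6 as the build and list StringTie 2.1.3b, HISAT2 2.1.0, Trimmomatic and bcl2fastq 2.20.0. Raw counts, FPKM and TPM for each gene were deposited by the authors; how reads were counted, and with which strand setting, is not given in the sources used here, so genes with antisense, overlapping or near-identical partners are uncertain. Spreadsheet dates in place of 27 symbols were restored by gene ID from RefSeq (GRCr8, names only; 29216 IDs found). TPM entered no test. Single values of some list members are not reported here.

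The test on the 6 libraries was edgeR 4.0.16 in R 4.3.3 (TMM, filterByExpr by group with a minimum count of 10 and total of 15, robust quasi-likelihood F test, Benjamini-Hochberg adjustment over all 17730 genes tested). Common biological variation was 8.99%. CPM values come from TMM over all 9 libraries and serve to compare libraries, not genes. Transcript length was taken as the count over FPKM and library total. Alternatives used DESeq2 1.42.0, limma 3.58.1 and log2(FPKM + 1), which understates changes of low genes. Replicate libraries differed by 5.73 to 12.3 times counting noise (chi-square per degree of freedom), so none was a copy.

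The comparison, 42 gene lists (939 of 945 entries matched) and the rule for named genes were chosen with earlier results of these data known. The rule takes, per direction, the 8 called genes with the smallest p and the 8 with the largest change (named, not overlapping, mean log2 CPM 0 or above), fills a direction to 10 with uncalled genes, and takes up to 3 called members per list, or the member with the smallest p, and 15 fixed genes. On simulated counts for this comparison (17448 genes), the test recovered 31.2% of 48 genes changed 1.25-fold, 60% of 50 at 1.5-fold, 88% of 50 at 2-fold and 98% of 50 at 3-fold, with 14 false calls among 17250 unchanged genes. These counts were drawn for each gene on its own, without shifts shared by many genes of a library. The rates may therefore not hold for the real libraries. Promoter windows and motif matches came from a RefSeq table.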

Additional observations from a re-analysis of the deposited data

How the results depend on the processing

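The 27 calls (25 higher and 2 lower in K4) changed with the processing, and the cause was not tested. Calls in all, higher and lower, numbered 15, 15 and 0 with median-ratio size factors; 47, 41 and 6 with upper quartile scaling; 382, 313 and 69 in DESeq2; 87, 75 and 12 without a low-count filter; 77, 66 and 11 with a mean CPM of at least 1; 20, 16 and 4 with the length offset; and 5, 5 and 0 with a prior that is not robust. edgeR with all 9 libraries gave 0, 0 and 0 (1648 at an unadjusted p below 0.05). limma on FPKM gave 0, 0 and 0 with a pseudocount of 1 and a mean of at least 1 (1909), with a pseudocount of 0.1 (1902) and without a filter (2335). Leaving out each library in turn gave 0 to 316 calls, 0 to 289 higher and 0 to 27 lower.

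Replicate numbers are shared by the groups, but same-numbered libraries deviated together with correlations of 0.0915, 0.0947 and 0.0664, all under 0.1, so the numbers were not taken as pairs, although each library correlated best with its own number. The replicate block gave 102 calls (88 higher, 14 lower, all 27 included), and the replicate block with the length offset gave 26 (25 higher, 1 lower, 16 of the 27 included).

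No called gene reversed in direction. Of 1446 values of named genes under alternatives, 14 reversed, all of genes not called. Leaving out each library in turn, Gria2 ranged from -0.0879 to 0.0050 (positive without Ketamine replicate 1), Arc from -0.178 to 0.977 and Fos from -0.321 to 0.944 (both negative without K4 replicate 2), Grin1 from -0.0204 to 0.0374 (negative without Ketamine replicate 3), and Sorcs3 from -0.0744 to 0.0262 (positive, at 9.486e-05 without Ketamine replicate 1 and at the upper end without Ketamine replicate 2). Grin2b ranged from -0.0122 (without K4 replicate 3) to 0.0387 and was -0.0048 without Ketamine replicate 3, and Npas4 ranged from -0.504 to 0.599 (without Ketamine replicate 3) and was 0.0936 without K4 replicate 3. With the length offset Grin1 was -0.0243 and Grin2b -0.103, and with the replicate block and length offset they were -0.0239 and -0.103. For Oprm1, a gene of low depth, the same fits gave 0.823 to 1.85, and what part depth has in that range was not tested.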

Other observations

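Cholinergic genes not described above went both ways, and none passed the test. The members with the smallest p were Chrna5 and Bche. Chrna5, the accessory nicotinic receptor subunit known from deep cortical layers, was measured at 7.01, 7.21 and 5.94 CPM in K4 and 4.14, 3.90 and 3.85 CPM in Ketamine, with Control at 4.54 to 6.17 CPM (log2 fold change 0.75, SE 0.14, adjusted p = 0.0525 in edgeR). Bche, butyrylcholinesterase, stood at 2.51, 3.06 and 2.43 CPM against 1.01, 1.52 and 1.10 CPM (log2 fold change 1.13, adjusted p = 0.0767). Of 18 adenosine and cholinergic genes tested, none was called (against 0.152% of all genes) and 11 were positive, with a median log2 fold change of 0.06. Chat, the enzyme of acetylcholine synthesis, had a log2 fold change of -0.19.

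Among pericyte and smooth muscle genes, Rgs5, a regulator of G protein signalling in pericytes, was at 19.7, 19.9 and 15.4 CPM in K4 and 13.6, 11.0 and 10.4 CPM in Ketamine, below Control at 24.7 to 39.2 CPM (log2 fold change 0.64, adjusted p = 0.0525). The contractile genes of the same list did not share its order: Acta2, smooth muscle actin, was at 12.2, 7.27 and 14.1 CPM in K4 and 6.53, 7.48 and 23.3 CPM in Ketamine, with Ketamine replicate 3 the highest library. Ifit3, an interferon-induced gene, was highest in K4 replicate 3, at 11.3 CPM against 3.10 and 3.27 CPM in the other K4 libraries and 2.27 to 4.26 CPM in Ketamine. The interferon and inflammation list had no call among 16 tested (against 0.152% of all genes called), with 14 positive and a median log2 fold change of 0.14. Without that replicate the median log2 fold change of the list was -0.06.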
